A study of Mus musculus with 24 samples.

Results

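The p53 pathway was read gene by gene in dendritic cells grown from mouse bone marrow, as 34 listed genes. They comprise the transcription factor p53 itself (gene Trp53), its inhibitors Mdm2 and Mdm4, and genes listed as its targets or close partners. Whether p53 acts directly on each of them in these mouse cells was not tested. The genes were taken by symbol from the authors' annotation table, and each was required to have a mean raw count of at least 10 over the 24 libraries. All 34 listed genes met this minimum, among 13379 of the 55487 genes of the series that did. The lowest members were Eda2r, with a mean of 55.1 counts, and Perp, with 83.2, so no listed gene fell under the minimum. All 34 also entered the test across 14535 genes.

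Both genotypes carried floxed alleles of Arpc4, a gene for part of the Arp2/3 machinery that starts new actin branches. The control group (WT below) was ARPC4 Flox/Flox CD11c-Cre -/-, and the knockout group (KO below) was ARPC4 Flox/Flox CD11c-Cre +/-, in which the CD11c promoter drives Cre recombinase in cells that express this dendritic cell marker. Marrow from mice aged 8 to 10 weeks, of both sexes, was cultured with supernatant that contained the growth factor GM-CSF, and cells were replated on days 4 and 7. Cells in suspension were taken on days 7, 8, 9 and 10, with 3 mice per genotype and day, mice 63, 65 and 66 for WT and mice 64, 67 and 68 for KO, and over 90% of cells were CD11c+ per the labels. The design asked how differentiation over these 4 days compares between control and KO cells.

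p53 is made and destroyed continuously in unstressed cells, because Mdm2, an E3 ubiquitin ligase whose gene p53 switches on, marks it for degradation. DNA damage and other stresses interrupt this loop, and p53 then binds DNA as a tetramer and raises transcription of genes for cell cycle arrest, DNA repair, metabolism and cell death. The activity of p53 is set mainly at the level of its protein, so the mRNA of Trp53 and of its targets need not move together. Cdkn1a, the gene of the cyclin-dependent kinase inhibitor p21, can be raised in myeloid cells both by p53 and without it.

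Libraries held 19952047 to 31049798 counts. Arpc4 was lower in KO than in WT by a log2 fold change of -0.18 to -0.28 on single days, and this passed the threshold for the mean of the 4 days (log2 fold change -0.21, SE 0.034, edgeR adjusted p 0.00081). The 8 dendritic cell markers, among them Itgax (the gene of CD11c, 750 to 1660 CPM, that is counts scaled to a common library size with TMM factors), were above 0 in every library, as were the 8 macrophage markers and the 9 neutrophil and precursor markers. Summed lymphocyte markers reached 11.1 CPM and erythroid markers 1.03. Each of the 8 groups held 1 library with the Y-linked gene Ddx3y at 56.5 CPM or more and Xist, the transcript of the inactive X chromosome, at 0.427 or less, while the other 16 libraries had Ddx3y at 0.136 or less and Xist at 496 or more. This library was always that of mouse 63 in WT. Among the KO libraries it was number 64 on days 7 and 9, 68 on day 8 and then 67 at the end of the course, so the KO numbers go against a reading in which 1 number is 1 mouse, and the results that changed without these libraries are given with and without them. In bulk RNA fewer cells of a type and less RNA per cell cannot be told apart.

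The promoters of the members were searched for the p53 half-site, the decamer consensus that p53 dimers bind, on both strands. RefSeq promoter windows on GRCm38.p6, from 250 bases before to 50 after the start, were found for 26 of the 34 members; Perp, Tnfrsf10b, Rrm2b, Xpc, Ddb2, Zmat3, Pmaip1 and Trp53inp1 had none. A half-site stood in a window of 10 of these 26 members (38.5%), against 9.55% of 27025 genes. Counted by window, it was 11 of 35 (31.4%) against 8.36% of 32851. A full site, here 2 half-sites no more than 13 bases apart, was found for 1 member, Cdkn1a, and in 24 of all windows (0.0731%). The stretches of 5 members are shown because they belong to the p53 gene, its inhibitor Mdm2, the p21 gene and the targets Ccng1 and Bax, and their matches lie before the start; capitals mark the half-site letters, and each sequence runs 5′ to 3′ on the strand of the gene.
Cdkn1a: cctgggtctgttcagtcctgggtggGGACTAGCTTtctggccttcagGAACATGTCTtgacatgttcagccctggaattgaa
Mdm2: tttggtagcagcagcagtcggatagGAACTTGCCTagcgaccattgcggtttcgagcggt
Ccng1: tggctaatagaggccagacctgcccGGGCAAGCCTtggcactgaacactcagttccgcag
Bax: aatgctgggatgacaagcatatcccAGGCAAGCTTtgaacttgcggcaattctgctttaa
Trp53: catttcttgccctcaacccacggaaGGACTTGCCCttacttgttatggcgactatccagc
The Cdkn1a stretch lies at chr17:29090881-29090962 on the forward strand, with half-sites that begin 73 and 51 bases before the start, 12 bases apart. The others lie at chr10:117710910-117710969 (reverse), chr11:40755437-40755496 (reverse), chr7:45467065-45467124 (reverse) and chr11:69580259-69580318 (forward). A match of letters is a description of the window and not a measured binding site. In the Cdkn1a stretch the 10 bases right after the second match depart from the consensus by 1 letter and are left unmarked. Which of these stretches p53 binds was not tested. The other members with a half-site were Aen, Ei24, Polk, Rps27l and Sesn1.

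By level, compared per length as the deposited TPM (counts divided by gene length, then by the library sum), the members spanned from Cdkn1a at 477 ± 179 TPM to Eda2r at 1.1 ± 0.494 TPM (mean ± SD over 24 libraries, which includes the change between days). Ccng1, a cyclin that recruits a phosphatase to Mdm2, followed at 406 ± 118 TPM, and then Rps27l, a ribosomal protein paralog, at 312 ± 83.5 TPM. The ranges of these 3 genes over libraries overlapped. Bax, Phlda3 and Mdm2 formed the next step, between 124 and 153 TPM, again with overlapping ranges. Trp53 stood in the middle of the list at 62.3 ± 17.1 TPM, and Perp, Rrm2b, Tnfrsf10b and Ddb2 were the lowest after Eda2r, at 5.00 to 7.56 TPM. The median member had 38.1 TPM, against 12.7 TPM over the genes tested, and 27 of the 34 members lay above that value.

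**Figure D1:**
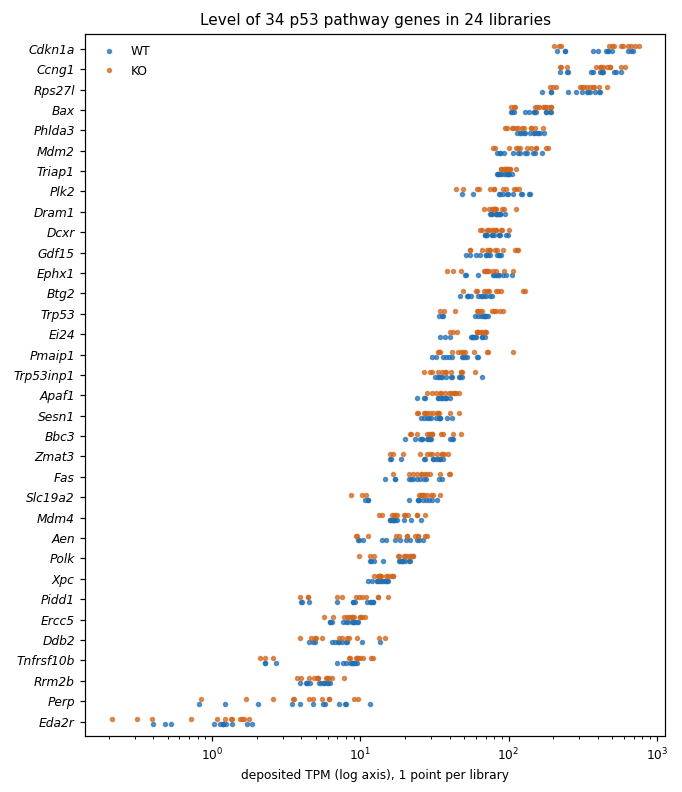
Deposited TPM of the 34 members in each of the 24 libraries, on a log axis, ordered by mean level, with WT in blue and KO in orange. The list runs from Cdkn1a with a mean of 476.5 TPM to Eda2r with a mean of 1.1 TPM, and the points of the 2 genotypes interleave.

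The step from day 7 to day 8 was the one between successive days in which most members changed, in both genotypes. In WT 17 members rose and 4 fell (edgeR's quasi-likelihood test, Benjamini-Hochberg adjusted p under 0.05 over all genes tested), and 43.4% of all genes were called in that step, 21.5% higher and 22% lower. In KO 16 rose and 6 fell, with 42% of all genes called, 21.1% higher and 20.9% lower. The same 15 members rose in both genotypes, Trp53, Cdkn1a, Mdm2, Ccng1, Zmat3, Bax, Tnfrsf10b, Fas, Aen, Eda2r, Polk, Pidd1, Ei24, Rps27l and Slc19a2, and the same 4 fell, Sesn1, Ddb2, Xpc and Ephx1. The members had a median log2 fold change (WT 0.20, KO 0.39) above that of all genes tested, which was -0.0038 and 0.0018. Without the 8 libraries with high Ddx3y, 17 rose and 4 fell in WT (37.1% of all genes called) and 18 rose and 6 fell in KO (40.2% of all genes called). On the TPM scale, where the median of all genes rose by 0.165 in WT and 0.172 in KO in this step, limma-trend called 19 members higher and 1 lower in WT and 22 higher and 2 lower in KO, with 46.8% and 46% of all genes called, 74.7% and 75.7% of these higher. Of the falls, those of Ephx1 in both genotypes and of Sesn1 in KO passed on that scale. Day 8 held the highest group mean for 15 members in WT (44.1%, against 27.8% of all genes tested) and for 16 in KO (47.1%, against 28.1%). Cells were replated on day 7, so replating and a day more in culture cannot be told apart in this step.

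Other genes moved in the same step, where 21.5% of all genes rose and 22% fell in WT, and 21.1% rose and 20.9% fell in KO. Of the 20 cell cycle genes that are repressed downstream of p21, 14 rose from day 7 to day 8 in WT and 3 in KO. Their summed level went from 277 to 340 CPM on day 7 to 508 to 649 on day 8 in WT, and from 389 to 717 to 374 to 990 in KO. The 8 macrophage markers, of which 3 rose and 1 fell in WT and 1 rose and 2 fell in KO, summed to 2360 to 2640 CPM in WT on day 7 and 2590 to 2900 CPM on day 8. In KO they summed to 2370 to 3200 and then 2090 to 3380 CPM. Of the 8 dendritic cell markers 1 fell in WT, and 1 rose and 1 fell in KO. Of 9 markers of neutrophils and their precursors 2 fell in WT and 4 in KO, of 4 monocyte markers 2 rose and 1 fell in WT and 1 rose and 1 fell in KO, and of 5 mast cell markers 3 rose in WT and 1 in KO. Of 20 interferon-stimulated genes 14 rose in WT and 9 in KO. Counts of 1 or 2 among 8 or 9 markers are near the shares over all genes. Whether the step differs between the genotypes was not tested for these lists, and neither was their part in the change of the members.

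The core of the pathway is Trp53 with its 2 inhibitors. Trp53 (ENSMUSG00000059552.13, chr11:69580359-69591873, forward strand on GRCm38) stood in WT at 52.1, 53.8 and 55.4 on day 7, 91.6, 77.0 and 90.8 on day 8, 90.9, 83.3 and 85.0 on day 9, and 83.7, 78.4 and 87.5 on day 10 in CPM, in the order of mice 63, 65 and 66. In KO it stood at 50.9, 60.9 and 55.7 on day 7, 82.4, 96.5 and 85.1 on day 8, 79.6, 101 and 96.1 on day 9, and 96.9, 79.0 and 90.8 on day 10 CPM, in the order of the numbers 64, 67 and 68, which holds for all lists of 3 values below. The libraries of day 7 were lower than those of each later day in both genotypes, without overlap, and the 3 later days overlapped. Trp53 rose 1.61-fold from day 7 to day 8 in WT (log2 fold change 0.69, SE 0.10, edgeR adjusted p 1.1e-05) and 1.58-fold in KO (log2 fold change 0.66, SE 0.10, edgeR adjusted p 1.9e-05).

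Mdm2 (ENSMUSG00000020184.15, chr10:117688875-117710758, reverse strand) stood at 169, 176 and 160.2 on day 7, 248, 272 and 241 on day 8, 186, 216 and 202 on day 9, and 163, 181 and 142 on day 10 CPM in WT. The KO libraries gave 186, 138 and 155 on day 7, 241, 207 and 307 on day 8, 288, 168 and 201 on day 9, and 155, 247 and 171 on day 10 CPM. It was highest on day 8 in WT and came back to the range of day 7 on day 10, while in KO 1 library lay well above the other 2 on days 8, 9 and 10. The rise from day 7 to day 8 was 1.51-fold in WT (log2 fold change 0.59, SE 0.18, edgeR adjusted p 0.013) and 1.57-fold in KO (log2 fold change 0.66, SE 0.18, edgeR adjusted p 0.0067). The WT call was lost without any 1 of the 3 WT mice (log2 fold change 0.58 to 0.61, adjusted p up to 0.079) and the KO call without number 68 (0.47, adjusted p 0.12). Mdm4, a relative of Mdm2 that binds p53 and blocks its activity, passed no test between days, with log2 fold changes of -0.23 in WT and -0.031 in KO from day 7 to day 8.

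Among the genes of cell cycle arrest and growth, Cdkn1a (ENSMUSG00000023067.14, chr17:29090976-29100727, forward strand) had the highest mean level of the members over 24 libraries. In WT it stood at 284, 316 and 326 on day 7, 790.4, 724 and 769 on day 8, 514, 558 and 511 on day 9, and 392, 499.7 and 463 on day 10 CPM. KO values were 283, 249 and 299.6 on day 7, 738, 776 and 838 on day 8, 725, 559.8 and 551 on day 9, and 486, 665 and 491 on day 10 CPM. Day 8 was the highest day in both genotypes with no overlap with any other day, and day 10 remained above day 7. The rise to day 8 was 2.47-fold in WT (log2 fold change 1.30, SE 0.13, edgeR adjusted p 1e-07) and 2.83-fold in KO (log2 fold change 1.5, SE 0.13, edgeR adjusted p 2.1e-08), and from day 8 to day 9 it fell by 0.53 on the log2 scale in WT (SE 0.12, edgeR adjusted p 0.02). In KO the change from day 8 to day 9 was -0.36 (SE 0.12, edgeR adjusted p 0.12). On day 7 Ccng1 lay above Cdkn1a in group means, at 241.3 against 230.4 TPM in WT and 231.7 against 215.3 in KO, with overlapping libraries. Ccng1 rose 1.91-fold in WT and 2.04-fold in KO from day 7 to day 8 (edgeR adjusted p 2.7e-06 and 8.5e-07), and Zmat3, an RNA-binding zinc finger protein that limits growth, rose 1.78-fold and 1.66-fold. Btg2, an antiproliferative gene, and Phlda3, an inhibitor of the kinase Akt, passed no test between days.

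**Figure D2:**
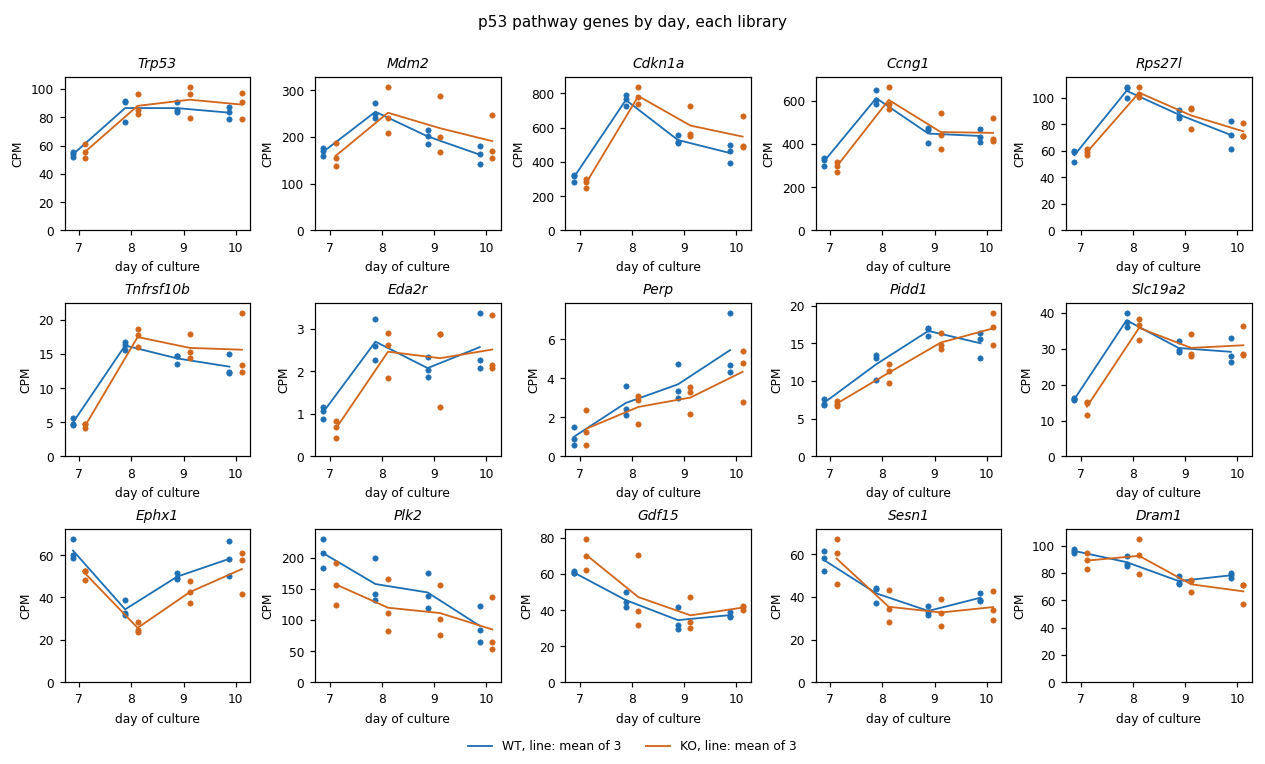
CPM of 15 members by day of culture, 1 point per library and a line through the mean of 3, WT in blue and KO in orange, with axes that start at 0. Cdkn1a, Ccng1, Rps27l and Slc19a2 peak on day 8, Perp and Pidd1 go on rising after it, Ephx1 is lowest on day 8, and Plk2, Gdf15, Sesn1 and Dram1 are lower on day 10 than on day 7.

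Plk2 and Gdf15 went the other way. Plk2, a polo-like kinase induced by p53, stood at 183, 230.4 and 208 on day 7, 132, 200 and 141 on day 8, 119, 175 and 138 on day 9, and 65.2, 122 and 84.0 on day 10 CPM in WT. In the KO libraries it was at 192, 123 and 155 on day 7, 112, 81.7 and 166 on day 8, 156, 75.5 and 101 on day 9, and 54.2, 136 and 63.9 on day 10 CPM. Day 10 was below day 7 in each WT library and overlapped with it in KO, where 1 library of each day lay well above the other 2 from day 8 on. From day 7 to day 10 Plk2 fell to 0.437 of its day 7 level in WT (log2 fold change -1.19, SE 0.33, edgeR adjusted p 0.0078). In KO it fell to 0.54 (log2 fold change -0.89, SE 0.33, edgeR adjusted p 0.04). The KO call was lost in 7 of 17 alternatives, among them the fit with mouse number as a block (adjusted p 0.052). Over the 17 the KO log2 fold change ran from -1.57 to -0.48. Gdf15, a secreted stress cytokine of the TGF-beta family, stood at 60.3, 61.7 and 60.6 on day 7, 49.9, 42.0 and 44.7 on day 8, 41.6, 32.0 and 29.6 on day 9, and 38.7, 36.9 and 36.1 on day 10 CPM in WT. In KO it stood at 62.0, 70.2 and 79.6 on day 7, 31.7, 39.7 and 70.3 on day 8, 47.3, 33.6 and 30.3 on day 9, and 42.3, 41.9 and 40.0 on day 10 CPM. It fell from day 7 to day 10 in both genotypes, to 0.612 in WT (log2 fold change -0.71, SE 0.20, edgeR adjusted p 0.0097) and 0.587 in KO (log2 fold change -0.77, SE 0.20, edgeR adjusted p 0.0055), without overlap between the 2 days. On the TPM scale neither Gdf15 call passed, with limma-trend adjusted p of 0.071 in WT and 0.05 in KO.

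Among the receptors of the tumor necrosis factor family, Tnfrsf10b and Eda2r rose most. Tnfrsf10b (ENSMUSG00000022074.6, chr14:69767472-69784411, forward strand), the mouse receptor of the death ligand TRAIL, stood at 4.70, 4.59 and 5.56 on day 7, 16.8, 15.6 and 16.3 on day 8, 13.5, 14.8 and 14.8 on day 9, and 12.3, 14.9 and 12.2 on day 10 CPM in WT. The KO libraries gave 4.19, 4.80 and 4.67 on day 7, 16, 18.6 and 17.7 on day 8, 18, 14.4 and 15.3 on day 9, and 12.4, 21 and 13.4 on day 10 CPM. Each later library lay far above the 3 of day 7. It rose 3.28-fold to day 8 in WT (log2 fold change 1.71, SE 0.16, edgeR adjusted p 6.3e-08) and 3.84-fold in KO (log2 fold change 1.94, SE 0.16, edgeR adjusted p 1.7e-08), the largest rise of any member in that step in either genotype. Eda2r, the receptor of ectodysplasin A2 and the member with the fewest counts, stood at 0.883, 1.17 and 1.07 on day 7, 2.59, 3.22 and 2.27 on day 8, 2.02, 2.33 and 1.86 on day 9, and 2.06, 3.37 and 2.25 on day 10 CPM in WT. KO values were 0.838, 0.429 and 0.686 on day 7, 2.90, 1.84 and 2.62 on day 8, 2.88, 1.16 and 2.87 on day 9, and 2.15, 3.31 and 2.06 on day 10 CPM. Day 7 was the lowest day in both genotypes without overlap, and the rise to day 8 was 2.59-fold in WT and 3.73-fold in KO, with wide 95% intervals of 1.62 to 4.13 and 2.28 to 6.11 (edgeR adjusted p 0.0018 and 0.00016).

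Fas, the receptor of Fas ligand, rose 1.7-fold in WT and 1.55-fold in KO to day 8 (edgeR adjusted p 4.3e-05 and 0.00029) and fell again to day 9 in both, to 0.693 and 0.663 of the day 8 level (edgeR adjusted p 0.018 and 0.015). On day 10 its difference from day 7 did not pass in either genotype. Pidd1, a death domain protein that activates a caspase complex, stood at 6.94, 7.63 and 6.76 on day 7, 13.5, 10.1 and 13.0 on day 8, 16.9, 16 and 17 on day 9, and 15.6, 16.4 and 13.0 on day 10 CPM in WT. In the KO libraries it was at 7.34, 6.99 and 6.64 on day 7, 9.74, 12.2 and 11.3 on day 8, 14.2, 16.4 and 14.7 on day 9, and 19.1, 14.7 and 17.1 on day 10 CPM. It climbed in each step to day 9 in WT and to day 10 in KO by group means, and day 10 was 2.11-fold above day 7 in WT (log2 fold change 1.08, SE 0.13, edgeR adjusted p 2.6e-06) and 2.43-fold in KO (log2 fold change 1.28, SE 0.12, edgeR adjusted p 3.4e-07). Perp, a membrane protein of desmosomes and an effector of p53 in cell death, was low, at 0.602, 0.890 and 1.5 on day 7, 2.45, 2.14 and 3.63 on day 8, 3.37, 2.98 and 4.73 on day 9, and 4.66, 4.31 and 7.36 on day 10 CPM in WT. In KO it stood at 0.599, 2.40 and 1.24 on day 7, 2.87, 3.08 and 1.65 on day 8, 2.19, 3.29 and 3.57 on day 9, and 4.80, 2.78 and 5.43 on day 10 CPM. It had the largest rise of any member from day 7 to day 10 in WT, 5.46-fold with a 95% interval of 2.97 to 10 (log2 fold change 2.45, SE 0.42, edgeR adjusted p 0.00014). In KO it rose 3.08-fold (log2 fold change 1.62, SE 0.40, edgeR adjusted p 0.0036), with log2 fold changes of 1.17 to 2.47 over 17 alternatives. Its step to day 8 passed in WT (log2 fold change 1.46, SE 0.43, edgeR adjusted p 0.0096) and missed the threshold in KO (log2 fold change 0.85, SE 0.41, edgeR adjusted p 0.1), and the difference between these steps was not tested.

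The mitochondrial arm of cell death was mixed. Bax, the pore-forming protein of the outer mitochondrial membrane, rose 1.51-fold in WT and 1.47-fold in KO to day 8 (edgeR adjusted p 1.5e-05 and 3.3e-05). Bbc3, which encodes the BH3-only protein PUMA, did not pass in that step and rose later, 1.46-fold from day 7 to day 10 in WT (log2 fold change 0.55, SE 0.10, edgeR adjusted p 0.00022) and 1.5-fold in KO (log2 fold change 0.58, SE 0.10, edgeR adjusted p 0.00014). Pmaip1, the gene of the BH3-only protein NOXA, passed no test, although its log2 fold changes from day 7 to day 10 were 0.52 in WT and 0.54 in KO (edgeR adjusted p 0.076 and 0.066). Apaf1, the scaffold of the apoptosome, rose 1.17-fold to day 8 in WT (edgeR adjusted p 0.018) and had a fold of 1.08 in KO (edgeR adjusted p 0.21), and whether the 2 differ was not tested.

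Of the other genes of death and autophagy, Aen, a nuclease, rose 2.16-fold in WT and 2.25-fold in KO to day 8 (edgeR adjusted p 4.4e-07 and 2.3e-07). Ei24, a membrane protein of the endoplasmic reticulum, rose 1.52-fold and 1.37-fold (edgeR adjusted p 3.4e-07 and 1.1e-05). Triap1, which carries lipids within mitochondria, and Trp53inp1, a stress protein of autophagy, passed no test. Dram1, a lysosomal membrane protein of autophagy, stood at 96.3, 97.3 and 94.8 on day 7, 86.3, 85.1 and 92.4 on day 8, 71.8, 72.7 and 77.8 on day 9, and 79.7, 78.6 and 76.5 on day 10 CPM in WT. The KO libraries gave 89.3, 83.3 and 94.6 on day 7, 105, 79.5 and 93.0 on day 8, 75.0, 66.1 and 74.1 on day 9, and 57.1, 71.3 and 71.3 on day 10 CPM. Day 10 lay below day 7 in both genotypes without overlap, at 0.814 of it in WT (log2 fold change -0.30, SE 0.09, edgeR adjusted p 0.014) and 0.747 in KO (log2 fold change -0.42, SE 0.09, edgeR adjusted p 0.0011). On the TPM scale neither call passed, with adjusted p of 0.9 in WT and 0.18 in KO from limma-trend.

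**Figure D3:**
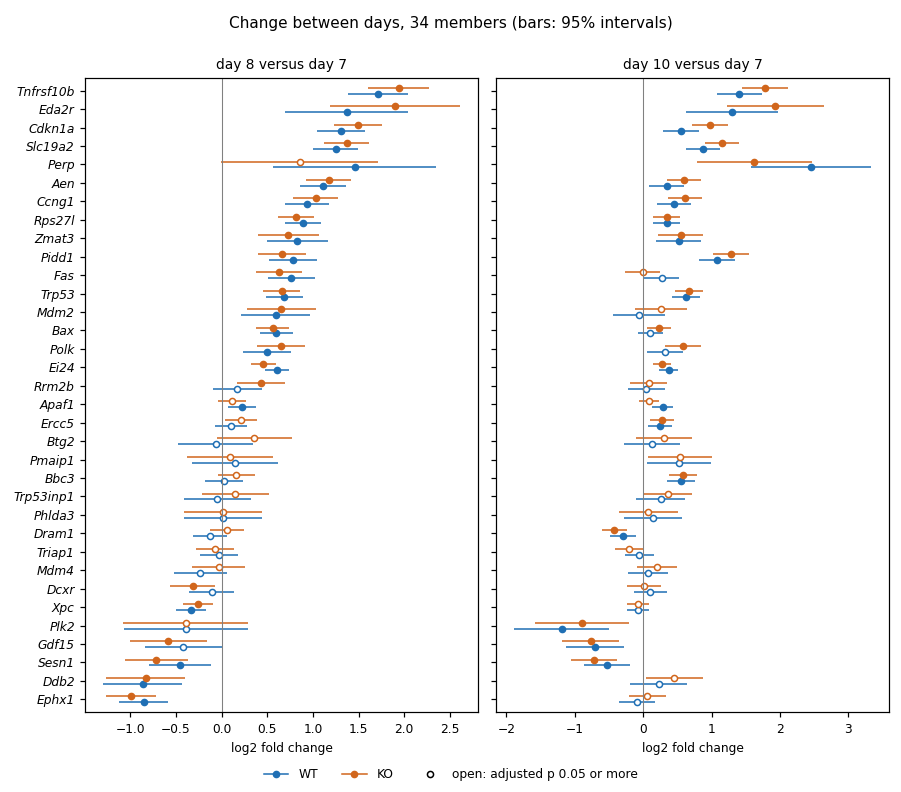
Log2 fold change of the 34 members from day 7 to day 8 (left) and from day 7 to day 10 (right), WT in blue and KO in orange, with bars for 95% intervals and filled points for an edgeR adjusted p under 0.05. Most members with a filled point lie right of 0 in both panels, Tnfrsf10b and Eda2r at the top, and the intervals of Ephx1 lie left of 0 on day 8 and span 0 on day 10.

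The genes of DNA repair split by direction. Polk, a translesion DNA polymerase, rose 1.41-fold in WT and 1.57-fold in KO to day 8 (edgeR adjusted p 0.0035 and 0.00035). The damage recognition genes of nucleotide excision repair fell, Xpc to 0.792 in WT and 0.837 in KO (edgeR adjusted p 0.0016 and 0.012), and Ddb2 to 0.549 and 0.562 (edgeR adjusted p 0.002 and 0.0031). On the TPM scale neither fall passed: for Xpc the log2 fold change was -0.10 in WT and -0.027 in KO (limma-trend adjusted p 0.34 and 0.82) and for Ddb2 -0.54 and -0.50 (0.051 and 0.068). The direction of these falls held there and their calls did not. On day 10 neither passed against day 7, with log2 fold changes of -0.077 in WT and -0.079 in KO for Xpc and of 0.23 and 0.45 for Ddb2. Ddb2 shares 652 exonic bases with Acp2 on the opposite strand, whose counts were 2647% of those of Ddb2, and the strand setting of the counting is not given in the sources used here. Acp2 did not fall in that step, at log2 fold changes of 0.31 in WT and 0.21 in KO. Ercc5, a repair endonuclease, rose 1.19-fold in WT and 1.2-fold in KO from day 7 to day 10 (edgeR adjusted p 0.026 and 0.013). Both calls were lost with no filter on low counts, and the KO call also with only the libraries compared in the fit. Rrm2b, a subunit of the p53-induced ribonucleotide reductase, rose in KO to day 8 (log2 fold change 0.43, SE 0.13, edgeR adjusted p 0.01) and had a log2 fold change of 0.17 in WT (edgeR adjusted p 0.29). Rps27l rose 1.85-fold in WT and 1.76-fold in KO to day 8 (edgeR adjusted p 2.7e-07 and 7.8e-07), while its close paralog Rps27, with which it could share reads, fell by 0.67 and 0.61 on the log2 scale.

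The genes of metabolism moved both ways too. Slc19a2, a thiamine transporter, stood at 16.3, 16 and 15.6 on day 7, 37.6, 40.0 and 36.1 on day 8, 29.6, 32.1 and 29.0 on day 9, and 27.9, 33.1 and 26.4 on day 10 CPM in WT. KO values were 15.3, 11.5 and 14.8 on day 7, 36.5, 38.4 and 32.5 on day 8, 34.2, 27.9 and 28.6 on day 9, and 28.2, 36.3 and 28.5 on day 10 CPM. It more than doubled to day 8 and stayed above day 7 in every later library, with a rise of 2.38-fold in WT (log2 fold change 1.25, SE 0.12, edgeR adjusted p 8.6e-08) and 2.58-fold in KO (log2 fold change 1.37, SE 0.12, edgeR adjusted p 3.1e-08). Sesn1, a sestrin that restrains the growth kinase mTOR, stood at 58.0, 61.7 and 52.1 on day 7, 37.1, 44.0 and 43.8 on day 8, 31.4, 35.8 and 33.1 on day 9, and 38.6, 42.0 and 38.3 on day 10 CPM in WT. In the KO libraries it was at 67.3, 46.0 and 60.6 on day 7, 34.5, 28.3 and 43.4 on day 8, 39.0, 26.4 and 32.7 on day 9, and 29.2, 42.7 and 33.7 on day 10 CPM. It was lower than on day 7 in each later library of its genotype, at 0.692 of the day 7 level on day 10 in WT (log2 fold change -0.53, SE 0.16, edgeR adjusted p 0.015) and 0.607 in KO (log2 fold change -0.72, SE 0.16, edgeR adjusted p 0.0018). On the TPM scale the WT call did not pass (limma-trend adjusted p 0.12) and the KO call did (0.012). Its step to day 8 likewise did not pass on TPM in WT (limma-trend adjusted p 0.15). Dcxr, a carbonyl reductase, passed in KO as lower on day 8 (log2 fold change -0.32, SE 0.12, edgeR adjusted p 0.038) and not in WT (log2 fold change -0.11, SE 0.12, edgeR adjusted p 0.49), and on TPM the KO step did not pass (log2 fold change -0.098, limma-trend adjusted p 0.41).

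Ephx1 (ENSMUSG00000038776.13, chr1:180976210-181020904, reverse strand), the microsomal epoxide hydrolase, had its lowest level on day 8. In WT it stood at 58.8, 59.9 and 67.8 on day 7, 32.7, 31.5 and 39.0 on day 8, 49.3, 48.9 and 51.4 on day 9, and 50.2, 58.1 and 66.5 on day 10 CPM. In KO it stood at 52.5, 48.3 and 52.7 on day 7, 28.6, 23.6 and 24.8 on day 8, 42.5, 37.4 and 47.7 on day 9, and 41.7, 57.8 and 60.8 on day 10 CPM. Day 8 was the lowest day in both genotypes without overlap with another day, and day 10 overlapped with day 7. It fell to 0.553 of its day 7 level in WT (log2 fold change -0.85, SE 0.13, edgeR adjusted p 2.2e-05) and to 0.502 in KO (log2 fold change -0.99, SE 0.13, edgeR adjusted p 4.4e-06), and rose again from day 8 to day 9, 1.45-fold in WT (log2 fold change 0.54, SE 0.13, edgeR adjusted p 0.022) and 1.66-fold in KO (log2 fold change 0.73, SE 0.13, edgeR adjusted p 0.0062).

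After day 8 fewer members moved. From day 8 to day 9 in WT, Pidd1 and Ephx1 rose and Cdkn1a, Ccng1, Fas and Ei24 fell, 6 members where 5.4% of all genes were called (3.06% higher, 2.34% lower). With mouse number as a block Pidd1 had an adjusted p of 0.06, and on TPM Pidd1 and Fas did not pass (limma-trend adjusted p 0.084 and 0.062). Without WT mouse 63, 65 or 66 the count was 0, and the share of all genes called was 0.31%, 0.261% and 0.117%. In KO Ephx1 rose and Fas and Dram1 fell, 3 members at 2.33% of all genes (1.31% higher, 1.02% lower), and 0 without number 68 (0.144% of all genes). The Dram1 call was also lost without number 63, 64, 65 or 66 (adjusted p up to 0.17 over all numbers), and the Fas call without 64 (adjusted p 0.05; 0.14 without 68) and on TPM (limma-trend adjusted p 0.054). From day 9 to day 10 Bbc3 rose in WT (log2 fold change 0.54, SE 0.10, edgeR adjusted p 0.0057), 1 member at 3.6% of all genes (1.18% higher, 2.42% lower), and 0 without mouse 63 or 65 (0% and 0.2% of all genes). In KO 0 members passed in edgeR, where 0.0963% of all genes did, 7 had an unadjusted p under 0.05 (12% of all genes), and DESeq2's Wald test called 1 (1.42% of all genes). Leaving out number 67 raised that count to 10, and the share of all genes called to 14.4%. That fit drops the KO library with high Ddx3y on day 10 and keeps the one on day 9, which was number 64.

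Over the whole interval, day 10 against day 7, 15 members were higher and 4 lower in WT, with 37% of all genes called (18.9% higher, 18.1% lower). In KO 16 were higher and 4 lower, with 36.8% of all genes called (19.7% higher, 17.1% lower). The same 14 members were higher and the same 4 lower in both genotypes. Sesn1, Plk2, Gdf15 and Dram1 were the 4 that fell. As a median log2 fold change, the members moved by 0.26 in WT (all genes tested, -0.015) and by 0.29 in KO (all genes tested, 0.0033). In this interval the 20 cell cycle genes rose in both genotypes, 20 of 20, and the summed dendritic cell markers went from 2360 to 2950 up to 5190 to 7020 CPM in WT and from 2650 to 3270 up to 4680 to 7920 CPM in KO. Of the 8 macrophage markers 1 rose and 4 fell in WT, and 1 rose and 5 fell in KO. Neutrophil and precursor markers, 9 genes, had 5 rises and 1 fall in WT and 1 fall in KO. Targets of ATF4 and CHOP, factors of the integrated stress response, were tested for 14 genes. In WT 1 of these rose and 8 fell, and in KO 4 rose and 3 fell. Among 20 interferon-stimulated genes 5 rose and 1 fell in WT, and 3 rose and 3 fell in KO. The part of these other genes in the changes of the members was not tested. The WT count was 12, 11 and 11 without mouse 63, 65 or 66, where the share of all genes called fell to 24.3%, 24.5% and 22.5%. Without the 8 libraries with high Ddx3y it was 18 (31.5% of all genes), and the KO count was 20 (34.5%). On the TPM scale, where the median of all genes rose by 0.21 in WT and 0.25 in KO, limma-trend called 23 members higher and 1 lower in WT and 26 higher and 1 lower in KO, with 47.3% and 51.6% of all genes called, 84.4% and 85.9% of these higher.

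Leaving out 1 mouse number, which also leaves fewer samples in the fit, ended some of these day calls, and each kept its direction. By their Ddx3y the KO numbers did not follow 1 mouse over the days. A left-out KO number can therefore be different mice on different days, and it changes which days keep the library with high Ddx3y. The calls of Trp53, Cdkn1a, Tnfrsf10b, Pidd1 and Slc19a2 on day 8 and on day 10 against day 7 held in both genotypes in each alternative run. From day 7 to day 8 in WT, Mdm2 and Sesn1 lost their call without mouse 63, 65 or 66 (Sesn1 with adjusted p up to 0.21), Perp without mouse 63 and Apaf1 without mouse 65 or 66. In that step in KO, Gdf15, Xpc, Rrm2b and Dcxr lost it without number 64 or 67, with adjusted p of up to 0.16, 0.25, 0.077 and 0.17. Gdf15 also lost it without WT mouse 65 or 66 and Dcxr without 63, 65 or 66, which do not enter the KO fold and change its error, and Gdf15 on TPM (limma-trend adjusted p 0.072). From day 7 to day 10 in WT, Zmat3, Sesn1, Gdf15, Aen, Ercc5 and Dram1 lost it without mouse 63, 65 or 66, Plk2 without 63 or 66, Ccng1 and Eda2r without 65, and Rps27l and Apaf1 without 66. Over that interval in KO, Zmat3 lost it without number 67, Bax without 65, 66, 67 or 68, and Ercc5 without 67 or 68. Perp lost it there without 64 or 68, and Sesn1 and Rps27l without 64. Zmat3, Bax, Plk2 and Ercc5 in KO also lost it with only the libraries compared in the fit, and Bax and Ercc5 with no filter. Without the libraries with high Ddx3y, Bax, Ei24 and Rps27l in KO lost their call from day 7 to day 10, with adjusted p of 0.19, 0.054 and 0.096 without the 4 KO libraries and 0.1, 0.079 and 0.056 without all 8. Without all 8, Sesn1 in WT from day 7 to day 8 (adjusted p 0.069) and Dram1 in WT from day 7 to day 10 (adjusted p 0.097) lost it as well. Bax in KO from day 7 to day 10 lost it in 9 of 17 alternatives, the highest number for any single gene result. Its adjusted p was 0.07 with mouse number as a block.

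Between genotypes, no single day gave a called member. On days 7, 8, 9 and 10 the counts of members called between KO and WT by edgeR were 0, 0, 0 and 0, where 1.45% (0.832% higher, 0.619% lower), 0.00688%, 0.00688% and 0.0138% of all genes were called. Members with an unadjusted p under 0.05 numbered 3, 2, 0 and 2 on these days, against 15.7%, 5.91%, 8.15% and 7.3% of all genes. DESeq2's Wald test called 0 members on each day, where it called 3.6%, 0.117%, 0.619% and 0.296% of all genes. The KO and WT libraries of a member did not overlap for 2 higher and 6 lower members on day 7, where 26.2% of all genes did not overlap (11.9% higher, 14.2% lower). The counts were 1 higher and 2 lower on day 8 (9.39% of all genes, 4.4% higher and 4.99% lower) and 2 and 2 on day 9 (14.1%, 7.62% higher and 6.47% lower). By day 10 they were 1 and 1 (10.4%, 5.47% higher and 4.97% lower). The 95% interval of the fold change lay within 2-fold either way for 31, 33, 32 and 33 of the 34 members on the 4 days, so larger differences fall outside the intervals of these members. Eda2r and Perp had the widest intervals, down to a log2 value of -1.43 and up to 1.44 on day 7.

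Trp53 itself differed by a log2 fold change of 0.054, 0.026, 0.10 and 0.10 on days 7 to 10 (edgeR adjusted p 0.83, 0.99, 0.9 and 0.89). Averaged over the 4 days the fold was 1.05 with a 95% interval of 0.978 to 1.12. For Cdkn1a the single days gave -0.15, 0.042, 0.21 and 0.28, the last with an unadjusted p of 0.036 and an edgeR adjusted p of 0.63. The interval of its mean over days was 0.977 to 1.17. On day 10 the Cdkn1a value was 0.12 without number 67, the library at 665 CPM, and 0.024 without the 8 libraries with high Ddx3y, and on day 9 it was 0.072 without number 64 and 0.063 without the 8. For Mdm2 the values were -0.075, -0.012, 0.12 and 0.24, and the interval of the mean was 0.919 to 1.19. The Mdm2 value of day 10 was 0.013 without number 67. In edgeR on all 24 libraries none of Trp53, Mdm2 and Cdkn1a passed between genotypes. For the mean of the 4 days Cdkn1a passed on TPM (log2 fold change 0.16, limma-trend adjusted p 0.033), and Trp53 passed without the 4 KO libraries with high Ddx3y (0.14, edgeR adjusted p 0.021) and without all 8 (0.16, edgeR adjusted p 0.038). In these Trp53 fits 25.9% and 21.8% of all genes passed, against 9.89% with all 24 libraries. The former keeps high Ddx3y in WT alone.

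For the mean of the 4 days 1 member passed, where 9.89% of all genes did (5.49% higher, 4.4% lower): Ephx1, at 0.833 of its WT level in KO (log2 fold change -0.26, SE 0.064, edgeR adjusted p 0.012). From the values above, its KO libraries lay below the WT libraries without overlap on days 7, 8 and 9 and overlapped on day 10. The call was lost without number 65, 66 or 67, with adjusted p up to 0.14. The next lowest adjusted p were those of Apaf1 (log2 fold change 0.11, SE 0.036, edgeR adjusted p 0.07) and Btg2 (log2 fold change 0.28, SE 0.10, edgeR adjusted p 0.074). Libraries of 1 mouse on several days were treated as separate samples in this test. The targets of p53 most used as readouts, Cdkn1a, Mdm2, Ccng1 and Bax, had edgeR adjusted p of 0.36, 0.69, 0.89 and 0.82.

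**Figure D4:**
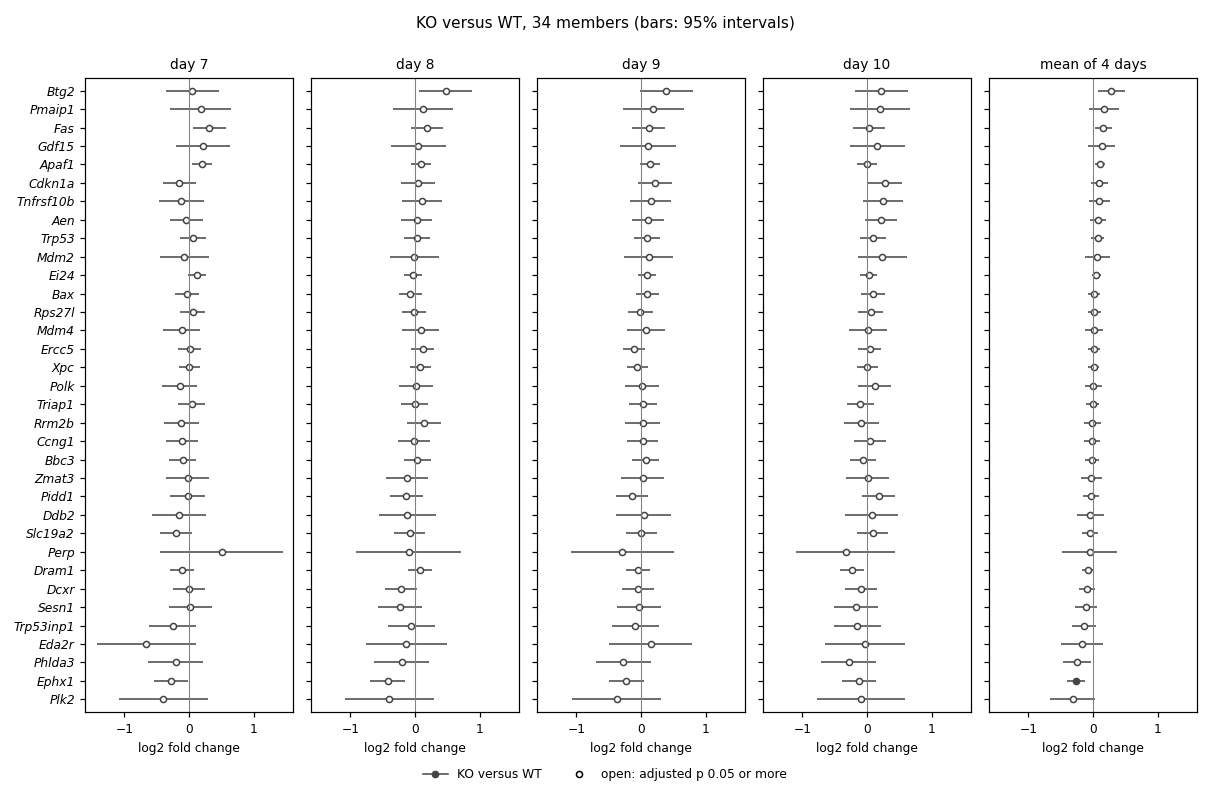
Log2 fold change of KO versus WT for the 34 members on each day and for the mean of the 4 days, ordered by the latter, with 95% intervals as bars. Open points mark an edgeR adjusted p of 0.05 or more, and the 1 filled point is Ephx1 in the right panel at a log2 fold change of -0.26.

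The change from day 7 to day 10 was also compared between genotypes. In edgeR 0 members passed this interaction, where 0.0619% of all genes were called, and DESeq2's Wald test called 0 (0.255% of all genes). In edgeR 1 member had an unadjusted p under 0.05, where 6.31% of all genes did. The member with the low unadjusted p was Cdkn1a, whose rise was larger in KO by 0.43 on the log2 scale (SE 0.17, unadjusted p 0.023, edgeR adjusted p 0.71). The interaction ranged from 0.18 without number 67 to 0.56 without number 68. By group, its rise was 1.46-fold in WT and 1.97-fold in KO.

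The genotype comparison changed with the libraries that had high Ddx3y. Without the 4 such KO libraries, 9 members were called for the mean of the 4 days (26.5% of the members, against 25.9% of all genes), Btg2, Apaf1, Trp53, Pmaip1 and Fas higher and Phlda3, Ephx1, Sesn1 and Plk2 lower. With all 24 libraries 9.89% of all genes were called. That fit keeps high Ddx3y in WT alone, in mouse 63 on each day, so genotype and sex are partly confounded in it. It also has fewer KO libraries, and those left out lay apart from the others of their group for several members. Without all 8, in both genotypes, 9 were called again (26.5% against 21.8% of all genes), 8 of them the same, with Zmat3, lower, in place of Pmaip1. Plk2 then had a log2 fold change of -0.77 (edgeR adjusted p 0.0013). On single days 1 member passed, Fas on day 7 without the 4 KO libraries (log2 fold change 0.45, edgeR adjusted p 0.034, 5.76% of all genes called), and 0 on any day without all 8, where 2.22%, 0.00688%, 0.0138% and 0.0206% of all genes were called. The direction of Mdm2 turned, to -0.12 and -0.13 for the mean of the 4 days, and that of Cdkn1a to -0.026 without all 8.

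Within KO the library with high Ddx3y held the highest value of its group on all 4 days for 6 members, Mdm2, Bax, Sesn1, Plk2, Aen and Triap1 (17.6% of the members, against 7.2% of all genes tested), and the lowest for 3, Pmaip1, Fas and Perp (9.67% of all genes). In WT it held the highest on all 4 days for 0 members (2.41% of all genes) and the lowest for Plk2 (2.84%). For Mdm2 the ratio of this KO library to the mean of the other 2 was 1.27, 1.37, 1.56 and 1.51 on days 7 to 10. For Plk2 it was 1.38, 1.71, 1.77 and 2.31, and for Cdkn1a 1.03, 1.11, 1.31 and 1.36. The same KO libraries had the lowest summed cell cycle genes of their group on each day, at 389, 374, 851 and 953 CPM against 444 to 1990 CPM in the others, the lowest summed dendritic cell markers, at 2650, 2610, 3410 and 4680 CPM, and the lowest summed monocyte markers, at 441, 288, 323 and 285 CPM. They also had the lowest mast cell sums on each day, at 26.7, 74.1, 76.5 and 34 CPM, and the highest macrophage sums on days 8, 9 and 10, at 3380, 2630 and 2520 CPM. In WT the library with high Ddx3y also had the lowest dendritic cell sum on each day, at 2360, 2900, 4320 and 5190 CPM, and the lowest mast cell sum, while its cell cycle sum was the highest of its group on days 7, 8 and 9 and its monocyte sum the lowest on day 8 alone. The part of these markers in the values of the members was not tested. The comparison was chosen after the values were seen, it rests on 1 library per group, and the part of sex, of the mouse and of the culture cannot be told apart in it.

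**Figure D5:**
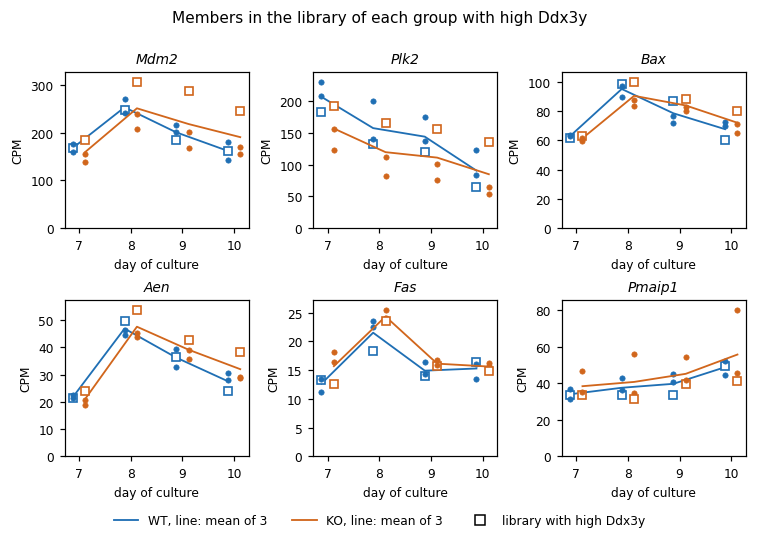
CPM of Mdm2, Plk2, Bax, Aen, Fas and Pmaip1 by day, 1 symbol per library and a line through the mean of 3, with an open square for the library with high Ddx3y in each group. The orange squares of KO are the highest of their group for Mdm2, Plk2, Bax and Aen and the lowest for Fas and Pmaip1 on each day, and the blue squares of WT do not keep that place, except as the lowest for Plk2.

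The rest of the pathway was read from lists of further genes. Of 35 other p53 targets 33 were tested, and from day 7 to day 8 11 rose and 6 fell in WT and 10 rose and 6 fell in KO, with a median log2 fold change of 0.11 and -0.038. The shares called, 51.5% and 48.5%, stood beside 43.4% and 42% of all genes. Log2 fold changes of the 33 in this step ran from -3.777 to 2.36 in WT and from -2.474 to 1.988 in KO. Ptp4a3, a phosphatase, rose by 1.29 in WT and 1.02 in KO on the log2 scale (edgeR adjusted p 2.5e-07 and 4.3e-06), and Bid, a BH3-only protein, by 0.84 and 0.82 (8.3e-07 and 1.1e-06). Tigar, a regulator of glycolysis, rose by 0.55 and 0.84 (1.7e-05 and 1.1e-07), and Thbs1, a secreted matrix protein, fell by 0.91 and 0.79 (3.8e-05 and 0.00016). Gtse1, which holds p53 in check in the G2 phase, rose by 2.07 and 1.46 (8.3e-09 and 4.3e-07). From day 7 to day 10, 11 of these targets rose and 5 fell in WT and 12 rose and 5 fell in KO. The shares called were 48.5% and 51.5%, against 37% and 36.8% of all genes. Log2 fold changes ran from -3.072 to 4.738 in WT and from -2.589 to 4.455 in KO. Gadd45a, a DNA damage and arrest gene, fell by 1.17 in WT and 1.59 in KO (edgeR adjusted p 0.0018 and 0.00014). Between KO and WT 1 was called on day 7, Gtse1 (log2 fold change 0.67, edgeR adjusted p 0.049), where 1.45% of all genes were called. On that day 6 had an unadjusted p under 0.05 in edgeR (15.7% of all genes). The count called was 0 on days 8, 9 and 10, where 1, 3 and 2 had an unadjusted p under 0.05 (5.91%, 8.15% and 7.3% of all genes). For the mean of the 4 days 3 were higher in KO, Gtse1, Bid and Thbs1, and 1 lower, Psrc1 (12.1% of the 33, against 9.89% of all genes).

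Of 21 regulators of p53 18 were tested, and from day 7 to day 8 4 rose and 3 fell in WT and 3 rose and 4 fell in KO (38.9% in each, against 43.4% and 42% of all genes). The checkpoint kinase genes Chek1 and Atr rose in both genotypes, Chek1 by 1.32 in WT and 0.94 in KO on the log2 scale (edgeR adjusted p 0.0033 and 0.019) and Atr by 0.49 and 0.52 (0.0051 and 0.0031). Setd7, a methyltransferase, and Dyrk2, a kinase that phosphorylates p53, fell in both, Setd7 by 0.59 and 0.54 and Dyrk2 by 0.45 and 0.47. Between genotypes 0 regulators were called on days 7 to 10 in edgeR, where 5, 2, 3 and 2 had an unadjusted p under 0.05 (15.7%, 5.91%, 8.15% and 7.3% of all genes). For the mean of the 4 days Ep300 and Crebbp, the genes of 2 acetyltransferases that act with p53, and Atm, the gene of the kinase that signals double-strand breaks, were higher in KO by 0.25, 0.26 and 0.28 on the log2 scale (edgeR adjusted p 0.0041, 0.0054 and 0.016), 3 of 18 or 16.7% against 9.89% of all genes.

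Other stress lists that share targets with p53 or report on it were set beside the members. Shares over all genes in these comparisons were 1.45% on day 7, 9.89% for the mean of the 4 days and 0.0619% in the interaction, and 15.7% at an unadjusted p under 0.05 on day 7. Of 14 tested targets of ATF4 and CHOP, factors of the integrated stress response, 5 were lower in KO on day 7 and 0 were called on days 8, 9 and 10, while 3 were lower for the mean of the 4 days and 2 were called higher in the interaction. Of 20 interferon-stimulated genes, 5 were higher in KO on day 7 and 17 for the mean of the 4 days. The 20 cell cycle genes had a median log2 fold change of 0.92 between KO and WT on day 7, with 0 called and 14 at an unadjusted p under 0.05.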

How the data were processed

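RNA from 24 libraries of bone-marrow-derived dendritic cells was sequenced from poly(A) RNA with stranded kits of 2 kinds, per the labels' protocols, without saying which library used which. The authors deposited whole-number counts per gene, not normalized, and TPM values scaled by gene length and library total. STAR 2.6.1, FastQC 0.11.9, DESeq2 1.22.2 and the build mm10 are named in the submitters' processing notes; the counter and its strand setting are not given in the sources used here. No column of another sample was found (0). Positions are from GENCODE M21 on GRCm38, where 55094 of 55487 identifiers had the same version; promoter sequences are RefSeq windows on GRCm38.p6.

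Counts were fitted with edgeR 4.0.16 in R 4.3.3: filterByExpr kept 14535 genes, TMM factors scaled libraries, and 1 quasi-likelihood fit with 8 group terms left 16 residual degrees of freedom. Calls are Benjamini-Hochberg adjusted p-values under 0.05 over all genes tested, and intervals are at 95%. The 14 comparisons set KO beside WT by day and averaged over the 4 days, followed each genotype between successive days and over the whole interval, and took the interaction of genotype with that interval. At 19952047 to 31049798 counts per library, members had means of 55.1 (Eda2r) to 14414.5 (Cdkn1a) counts per library, so counting error weighs most on Eda2r, Perp and Ddb2.

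Members and lists were chosen with earlier results of these data known. Values in every library are given for Trp53, Cdkn1a and Mdm2, for members called between genotypes, and for up to 5 of the largest rises and 5 of the largest falls from day 7 to day 10 in each genotype among members past the threshold (4 falls passed); members and lists named beyond this were chosen after their values were seen. The script was tested on simulated data. The alternatives were DESeq2 1.42.0 size factors or Wald test, no filter or a mean of at least 50 counts, limma 3.58.1 on log2(TPM + 1), sex of the library as a term, the libraries compared alone, each mouse number left out, and mouse number as a replicate block. Leaving out the libraries with high Ddx3y, and limma on TPM between successive days, were added after seeing the data.

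The 24 pairs of libraries within groups differed by 7.1 to 125 in chi-square per degree of freedom, so none was counted as a duplicate. Mouse numbers come from the labels. Same-numbered libraries deviated together from their group means in WT, with a mean correlation of 0.27 over 10580 genes and 16 of 18 pairs of days over 0.1, while KO pairs went both ways, from -0.78 to 0.779 with a mean of 0.018. Among KO days 7, 8 and 9, 8 of 9 pairs were over 0.1, and of the 9 pairs with day 10 it was 1.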

Additional observations from a re-analysis of the deposited data

How the results depend on the processing

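Between KO and WT on single days and in the interaction, the count of members called stayed at 0 in the alternatives run. The exception was 1 on day 7 without the KO libraries with high Ddx3y (5.76% of all genes called). For the mean of the 4 days the count of 1 became 3 in DESeq2's Wald test (12.3% of all genes called) and 2 with no filter (5.28%). It became 4 with limma-trend on TPM (10.7%), 9 without the KO libraries with high Ddx3y (25.9%) and 9 without all 8 such libraries (21.8%). With 1 mouse number left out it was 0 to 2 (3.25% to 10.1%). From day 7 to day 10 the 19 members of WT became 11 to 21 with 1 number left out (22.5% to 40.6% of all genes called). From day 8 to day 9 the 6 of WT became 0 to 11 with 1 number left out (0.117% to 11.4%). The 3 of KO became 0 to 3 (0.144% to 3.8%), or 6 in the Wald test (5.97%). From day 9 to day 10 the 1 of WT became 0 to 3 (0% to 7.3%), or 2 in the Wald test and on TPM (5.63% and 2.61%). The 0 of KO became 0 to 10 (0% to 14.4%), or 1 in the Wald test (1.42%). Other counts stayed within 1.5 times. Leave-one-out fits also have fewer samples, and a KO number need not be 1 mouse.

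Among 111 gene results, 1563 values were computed. These results were the member results called in the main analysis, and those of Trp53, Cdkn1a and Mdm2 between genotypes and in the interaction. Of the values, 1414 kept direction and side of the threshold and 129 kept direction and lost the call. Another 3 gained it (Trp53 in both sets without high Ddx3y, Cdkn1a on TPM, for the mean of the 4 days). Only Trp53, Cdkn1a and Mdm2 could gain a call here, because uncalled results of other members were left out. Direction turned in 17, none of them called in the main analysis, and the cause was not tested. For KO against WT with 1 number left out, Mdm2 ranged from -0.19 to 0.038 on day 7, -0.18 to 0.12 on day 8 and -0.13 to 0.28 on day 9, Trp53 from -0.044 to 0.076 on day 8, and Cdkn1a from -0.0082 to 0.089 on day 8. In the interaction Trp53 ranged from -0.094 to 0.17 and Mdm2 from -0.025 to 0.56. On day 8 Mdm2 was at 0.031 on TPM. Without the 4 or the 8 libraries with high Ddx3y Mdm2 was at -0.12 and -0.17 on day 9 and at -0.12 and -0.13 for the mean, and Cdkn1a was at -0.026 for the mean without the 8.

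With mouse number as a replicate block the counts from day 7 to day 10 were 20 in WT and 19 in KO (37.3% and 36.5% of all genes called). From day 7 to day 8 they were 21 and 22 (43.4% and 41.6%). As an edgeR term the block ended the calls of Pidd1 from day 8 to day 9 in WT and of Bax and Plk2 from day 7 to day 10 in KO. For the mean of the 4 days the count was 1 (8.57%), from a limma fit of weighted log counts (voom). There the correlation of libraries of 1 number was estimated at 0.00464, so they were treated almost as separate samples. The KO numbers also go against 1 number being 1 mouse, so that count is no check on repeated mice. After exchanging KO numbers to give high Ddx3y a single number, the KO count was 24 with 44.6% of all genes called, and the interaction count 0 with 1.79%. Depth limits Eda2r, Perp and Ddb2 most.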
